A study of Mus musculus with 12 samples.

Results

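The interval described here lies on mouse chromosome 12 between the end of Cyria and the Mycn enhancer that served as the 4C-seq viewpoint. Its members are all listed 10 kb windows, stepping by 1 kb, that start between 12381001 and 12776001 (build mm10), and they were chosen by position alone, with no measured value. There were 396 such windows, of 7348 listed for the Mycn enhancer and 17305 listed for the 3 viewpoints of the series, and every window that the steps allow was listed. Together they cover 405 kb, from 12381001 to 12786000, and the viewpoint window follows at 12786001 to 12796000. The series holds 12 4C-seq libraries, and 4 of them were made from the Mycn enhancer. The ES group is 2 libraries of embryonic stem cells of the V6.5 line grown in 2i, a pair of kinase inhibitors that holds the cells in a naive pluripotent state. The MEF group is 2 libraries of uninduced fibroblasts grown in DMEM, taken at E13.5 from embryos heterozygous for an Oct4-GFP reporter, an OKSM cassette and rtTA3. OKSM stands for the reprogramming factors Oct4, Klf4, Sox2 and Myc, and rtTA3 is the transactivator that switches the cassette on with doxycycline. The ES cells are 1 line and the labels give the fibroblasts no sex or number of embryos. The groups differ in genotype and medium as well as in cell type, and these cannot be told apart.

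4C-seq asks which chromatin lies close to 1 chosen site. Fixed chromatin is cut with DpnII, which recognises GATC, and religated, so that fragments close to the viewpoint in the nucleus become joined to it, and the joined fragments are amplified and sequenced. Contact falls with distance along the chromosome in any such profile, and enhancers, promoters and sites bound by the architectural protein CTCF often stand out above that fall. Mycn encodes a MYC-family transcription factor that drives growth and proliferation and is expressed in pluripotent and embryonic cells. Cyria encodes a protein that binds RAC1 and restrains actin remodelling. In the RefSeq gene table of GRCm38.p6, the assembly that mm10 names, the interval holds 7 genes, of which 6 are long noncoding RNAs and 0 are protein coding. They are 4921511I17Rik, which lies only partly inside, Gm34489, Gm34637, Gm34696, Gm40270 and Gm35104, and the small nuclear RNA gene Gm25538 inside Gm34696. These genes cover 35.9% of the interval, and no role is given here for any of them.

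The RefSeq promoter table (GRCm38.p6, 250 bases before to 50 after a start) held 6 starts of 4 of these genes. Those printed are the 3 starts of Gm34489 and the start of Gm35104, next to the viewpoint. The outer Gm34489 start lies at the gene's far edge, the middle one inside a local maximum of the contact profile of both cell types, and the inner one inside a stretch with more contact in MEFs. They lie on the plus strand at chr12:12420791-12421090, chr12:12427126-12427425, chr12:12495524-12495823 and chr12:12765744-12766043. Capitals mark GATC, the DpnII site, and a match to the CTCF core pattern, which spans 14 letters with 8 of them fixed and was searched on both strands.
Gm34489 outer start: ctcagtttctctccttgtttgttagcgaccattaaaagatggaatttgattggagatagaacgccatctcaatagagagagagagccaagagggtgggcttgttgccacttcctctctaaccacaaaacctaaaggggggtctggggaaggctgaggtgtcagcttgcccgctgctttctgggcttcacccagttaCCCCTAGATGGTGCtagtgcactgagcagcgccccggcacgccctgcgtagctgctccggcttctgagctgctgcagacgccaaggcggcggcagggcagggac
Gm34489 middle start: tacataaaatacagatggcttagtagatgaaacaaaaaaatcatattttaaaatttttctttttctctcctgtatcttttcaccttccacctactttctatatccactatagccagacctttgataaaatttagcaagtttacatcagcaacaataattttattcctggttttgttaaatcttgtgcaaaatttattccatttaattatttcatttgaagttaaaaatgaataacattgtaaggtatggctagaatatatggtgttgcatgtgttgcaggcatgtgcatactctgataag
Gm34489 inner start: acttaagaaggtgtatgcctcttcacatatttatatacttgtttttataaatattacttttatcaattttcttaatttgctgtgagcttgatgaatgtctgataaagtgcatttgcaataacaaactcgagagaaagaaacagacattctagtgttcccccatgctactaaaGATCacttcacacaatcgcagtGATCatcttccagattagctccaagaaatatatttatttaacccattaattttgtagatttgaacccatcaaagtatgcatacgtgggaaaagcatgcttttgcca
Gm35104 start: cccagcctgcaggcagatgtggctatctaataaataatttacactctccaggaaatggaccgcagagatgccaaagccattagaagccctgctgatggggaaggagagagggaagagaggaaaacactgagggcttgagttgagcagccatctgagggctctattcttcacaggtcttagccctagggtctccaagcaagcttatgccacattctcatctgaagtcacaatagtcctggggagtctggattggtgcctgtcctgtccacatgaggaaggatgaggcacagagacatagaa
The outer start of Gm34489 had 56.7% G and C, 1 match to the CTCF pattern, beginning at position 197 counted from 1 at the first printed base, and 0 GATC. Of 32841 promoters of 300 bases in the table, 3.78% held the CTCF pattern. This pattern was chosen after the sequences had been read, and a match of letters is no evidence of binding. The middle start had 29.0% G and C and 0 GATC. The inner start had 33.0% G and C and 2 GATC, the first at position 173, and the Gm35104 start had 0, while 48.0% of all promoters held at least 1. None of the 6 starts held the Csp6I site GTAC, the E-box CACGTG or the Klf-type letters CCNCNCCC, which 35.8%, 7.15% and 49.5% of all promoters held on either strand.

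Each value is a window's counts per 1000 counts of its library. The totals recovered from the files were 88038 and 27290 for ES replicates 1 and 2, and 16774 and 59424 for MEF replicates 1 and 2. The median window of the interval held 296.5, 90.0, 77.5 and 285 counts in that order, so ES replicate 2 and MEF replicate 1 give the less precise values. The same order, ES replicate 1, ES replicate 2, MEF replicate 1, MEF replicate 2, is kept wherever 4 values are given. Separate cultures are not stated for the replicates, and the p-values therefore rest on a spread between libraries that may be only technical. No expression was measured, so the cell types could not be checked against marker genes. Values are shares of 1 total, so a higher share elsewhere on the chromosome lowers the share here. Centring each library on its median tested window raised the ES minus MEF differences of single windows by 0.26 on the log2 scale.

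The enhancer spent a smaller share of its contacts on the interval in ES cells than in MEFs. The interval held 19.4%, 20.2%, 25.7% and 27.1% of the counts, with 95% Wilson intervals of 19.1 to 19.6%, 19.7 to 20.7%, 25.0 to 26.4% and 26.7 to 27.4% that cover counting error only. These shares were summed over the 40 windows that do not overlap, which end at 12781000, so the 5 kb next to the viewpoint window were left out. The share of the Mycn side, the ratio of the sides and the mean distance below leave out the same distances. Both ES libraries lay below both MEF libraries, at 19.8% ± 0.58 against 26.4% ± 0.98 (SD, n = 2 each), a difference of -6.60 points. With windows that start 5 kb further, and so reach the viewpoint window, the difference was -7.18 points. With 2 libraries a group the two-sided exact permutation test cannot give less than p = 0.333, the value reached here. The difference did not come from the windows next to the viewpoint alone. Without those of the 40 windows that come within 50 kb of it, which leaves windows up to 12731000, the interval held 12.0%, 12.2%, 15.9% and 15.8%. Both ES libraries were again lower.

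The stretch at equal distances on the other side of the viewpoint, which holds Mycn, showed the reverse when taken as a whole. It took 30.6%, 30.4%, 20.4% and 21.0% of the counts, with both ES libraries higher by 9.81 points on average (exact permutation p = 0.333). Added together, the sides took 50.0%, 50.6%, 46.1% and 48.1%, a difference of 3.22 points with both ES libraries higher. The reverse came from the nearer part of that side. In its 5 blocks of 50 kb up to 255 kb from the viewpoint both ES libraries lay above both MEF libraries, and in the 3 from 255 to 405 kb both MEF libraries lay above both ES libraries, 1.26-, 1.72- and 1.65-fold on the means from near to far, as they did in the interval. The log2 ratio of the interval to the Mycn side was -0.66, -0.59, 0.33 and 0.37, so the balance lay on the Mycn side in both ES libraries and on the Cyria side in both MEF libraries. The group means were -0.62 ± 0.05 and 0.35 ± 0.03 (SD, n = 2 each), and the difference of -0.98 is many times the spread between replicates, although the exact permutation test again could not go below p = 0.333.

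Within the interval the average contact in MEFs lay slightly further from the viewpoint. The mean distance of the counts was 127.6, 121.9, 136.2 and 129.1 kb. The groups did not overlap, but the gap between ES replicate 1 and MEF replicate 2 was small beside the spread within each group (124.7 ± 4.0 against 132.7 ± 5.0 kb, SD, n = 2 each; exact permutation p = 0.333). The difference of -7.92 kb became -4.40 kb without MEF replicate 1 and -5.06 kb without ES replicate 2, and -10.8 and -11.4 kb without ES replicate 1 and MEF replicate 2.

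**Figure D1:**
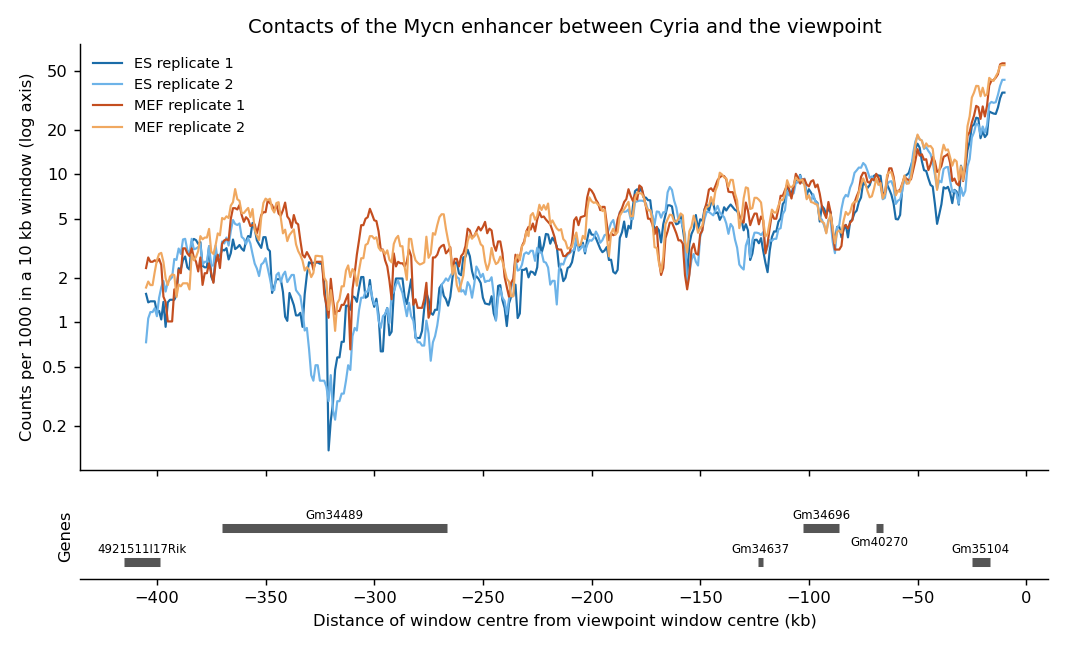
Counts per 1000 in each of the 396 windows (log axis) against the distance of the window centre from the viewpoint window centre in kb, 1 line per library, with the RefSeq genes as bars below. The lines run together close to -100 kb and -180 kb, and the MEF lines lie above the ES lines over most of Gm34489 and next to the viewpoint.

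Window by window, many parts of the interval had more contact in MEFs and very few had more in ES cells. Of 395 windows that passed the filter (2 or more of the 4 libraries reaching 1 count per 1000), limma on log2(value + 1) with Benjamini-Hochberg adjustment at 0.05 over the 1107 tested windows of the chromosome called 114 higher in MEFs and 3 higher in ES cells. Over all 1107 windows, 30.6% were called in either direction, 14.2% higher in MEFs and 16.4% higher in ES cells. The share called in either direction in the interval, 29.6%, is close to that background, and it was the split of directions that differed from it, with 28.9% higher in MEFs and 0.759% higher in ES cells. Of the 114, 9 had both ES values under 1 and so passed the filter through the MEF libraries alone, which leaves 105 that did not. The interval held 114 of the 157 windows of the chromosome called higher in MEFs. Overlap of the libraries gave a like split, with both MEF libraries above both ES libraries in 243 windows (background 39.7%), the reverse in 23 (background 26.8%) and overlap in 129. The median log2 difference, ES minus MEF, was -0.44, against -0.15 over all tested windows, 0.07 over those outside the interval and 0.34 over the windows at equal distances on the Mycn side. Neighbouring windows share 9 of their 10 kb, so these counts are not counts of independent sites. In windows that do not overlap, 13 of 40 were called higher in MEFs and 0 higher in ES cells, against 17.5% and 17.5% of all such windows of the chromosome (35.1% in either direction). With log2 values centred on each library's median, which removes a shift common to all windows, 23 windows were still called higher in MEFs and 10 were called higher in ES cells, against 3.25% and 21.7% of all tested windows (24.9% in either direction).

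**Figure D2:**
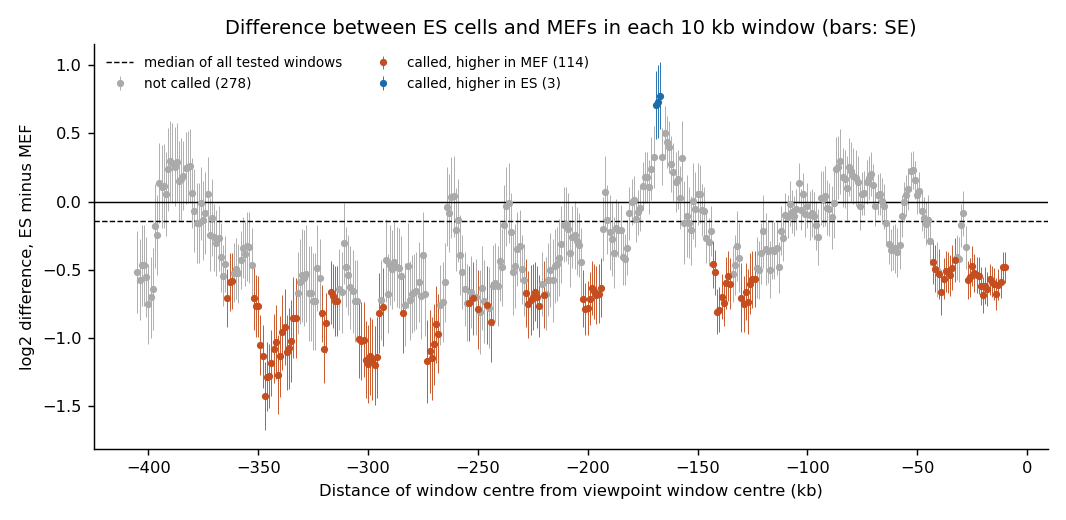
Difference in log2(value + 1), ES minus MEF, for the 395 tested windows against distance from the viewpoint in kb, with bars for the SE of the limma fit. Orange points are the 114 windows called higher in MEFs, blue the 3 called higher in ES cells, and the dashed line is the median of all tested windows, -0.15.

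The widest stretch with more contact in MEFs ran over most of Gm34489, a noncoding RNA gene of 103 kb (12421041 to 12524489), and on past its inner end. Over the gene with 10 kb on each side, the mean window had 2.01, 1.78, 3.32 and 3.57 counts per 1000. Both MEF libraries lay above both ES libraries, and the means of 1.89 ± 0.16 and 3.44 ± 0.18 (SD, n = 2 each) differ 1.82-fold (log2 difference -0.62, SE 0.08, limma adjusted p = 0.00163). Of 24 gene loci tested on the chromosome, 75.0% were called in either direction and 45.8% were called higher in MEFs, so a call alone does not set this locus apart. Of the 112 tested windows that overlap the gene, 48 were called higher in MEFs and 0 higher in ES cells. Over all 1107 tested windows, 14.2% were called higher in MEFs and 16.4% higher in ES cells. The 48 include all 9 windows of the interval that passed the filter through the MEF libraries alone. The locus remained called without any 1 library (adjusted p between 0.00397 and 0.0377) and after centring (-0.37, adjusted p = 0.00881). Scaled to the total of the interval alone it was lower in ES cells by a smaller amount and not called (-0.32, limma adjusted p = 0.0543).

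Merging called windows no more than 20 kb apart gave 1 region of 180 kb here, from 12422001 to 12602000. It held 70 called windows, among them the 9 that passed the filter through the MEF libraries alone. The window with its smallest p, at 12439001 to 12449000 inside Gm34489 (position -347 kb from the viewpoint), had 1.58, 1.65, 6.20 and 5.86 counts per 1000, from 139, 45, 104 and 348 counts. Both MEF libraries stood far above both ES libraries, 3.74-fold on the means (log2 difference -1.43, SE 0.25, limma adjusted p = 0.000227), and it is the largest log2 difference towards MEFs of any tested window of the chromosome. The call held under all 14 other settings and libraries left out. The region was not even. Its called windows formed separate runs, and 20 windows made up the longest, from 12434001 to 12463000.

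A run of 10 windows covered the inner start of Gm34489 printed above, from 12482001 to 12501000. Its window of smallest p, 12486001 to 12496000, had 1.27, 1.32, 4.89 and 3.67 counts per 1000, with the MEF libraries 3.30-fold higher on the means (log2 difference -1.19, SE 0.29, limma adjusted p = 0.00359). Of the 10 windows that hold that whole promoter, 7 were called higher in MEFs. Closer to the gene's inner end, a run of 6 windows from 12513001 to 12528000 was 3.63-fold higher in MEFs at its window of smallest p (1.12, 0.733, 2.74 and 4.01 counts per 1000; log2 difference -1.17, SE 0.30, adjusted p = 0.00571). At the middle start 3 of the 10 windows that hold the whole promoter were called higher in MEFs, among them 12422001 to 12432000, with 3.12, 4.62, 5.90 and 7.94 counts per 1000 (log2 difference -0.71, SE 0.22, limma adjusted p = 0.0173). At the outer start none was. Of the 9 windows that hold its promoter, 0 were called, and the window centred nearest to it had 3.10, 3.52, 3.40 and 5.07 counts per 1000, with overlap between the groups (log2 difference -0.26, limma adjusted p = 0.444).

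Between these runs lay the least contacted stretch of the interval in both cell types. The window at 12468001 to 12478000, the lowest in ES replicate 2 and MEF replicate 2, had 0.477, 0.220, 1.13 and 0.875 counts per 1000, from 42, 6, 19 and 52 counts, and was the 1 window left untested because a single library reached 1. The ES libraries lay below the MEF libraries even there. Replicates differed in the 50 kb block from 12431001 that holds this window: ES replicate 1 had 2.12 and ES replicate 2 had 1.38 counts per 1000 on average. Windows with less than 1 count per 1000 numbered 19 and 38 in the ES libraries and 1 and 1 in the MEF libraries.

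Beyond the inner end of Gm34489 no gene is annotated until Gm34637, and contact was again higher in MEFs over much of the next stretch. At the inner end itself the groups overlapped, in the windows that start between 12522001 and 12527001. The block from 12531001 to 12581000 had 1.98, 2.23, 3.60 and 3.68 counts per 1000 on average, with no overlap and a 1.73-fold difference (log2 difference -0.58, limma adjusted p = 0.000419). A window at 12585001 to 12595000, a local maximum of the MEF profile, had 4.24, 3.59, 7.99 and 6.98 counts per 1000, with both MEF libraries higher (1.91-fold, log2 difference -0.79, SE 0.19, limma adjusted p = 0.00404). The next maximum of the profile did not differ by the test. That maximum, at 12609001 to 12619000, had 8.06, 6.63, 8.17 and 7.42 counts per 1000, and the groups overlapped (log2 difference -0.08, limma adjusted p = 0.749).

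Just beyond that maximum lay the 1 region of the interval called higher in ES cells, 12 kb long, from 12617001 to 12629000, with 3 called windows and no annotated gene. At 12619001 to 12629000 the values were 4.60, 5.53, 2.33 and 2.74 counts per 1000, with both ES libraries above both MEF libraries and a 2.00-fold difference of the means (log2 difference 0.78, SE 0.24, limma adjusted p = 0.0203). The call was lost without ES replicate 1 (adjusted p = 0.0715), ES replicate 2 (0.185) or MEF replicate 1 (0.0633), and without the filter on low values (0.0967), so it is the least secure region of the interval.

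The stretch in front of Gm34637, a short noncoding RNA gene at 12667732 to 12669917, was again higher in MEFs. A region of 29 kb from 12643001 to 12672000 held 16 called windows. Its window of smallest p, 12645001 to 12655000, which is the highest MEF window of its block, had 4.92, 5.53, 9.54 and 10.2 counts per 1000. Both MEF libraries were higher, 1.89-fold on the means (log2 difference -0.81, SE 0.17, limma adjusted p = 0.000988). Scaled to the interval total this window was not called (-0.44, adjusted p = 0.0752). Over the Gm34637 locus the values were 4.87, 4.21, 6.00 and 6.76 counts per 1000, without overlap (log2 difference -0.41, limma adjusted p = 0.0120). That smaller difference was no longer called on leaving out ES replicate 1 (adjusted p = 0.0842), ES replicate 2 (0.148) or MEF replicate 2 (0.143), or after centring (0.261).

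Around Gm34696 and Gm40270, between 105 and 55 kb from the viewpoint, no difference between the cell types was called, although other scalings gave calls in opposite directions. The block from 12681001 to 12731000 had 6.77, 7.70, 7.56 and 6.98 counts per 1000, the groups overlapped, and 0 of its 50 windows were called (log2 difference of the block -0.01, limma adjusted p = 0.961). The Gm34696 locus (12688361 to 12704861) had 6.30, 6.97, 6.90 and 6.53 counts per 1000, and the order of the libraries did not follow cell type (log2 difference -0.02, SE 0.08, adjusted p = 0.879). Gm25538 shares its windows and is not given on its own. The Gm40270 locus (12721945 to 12725280) had 7.84, 9.23, 8.41 and 8.25 counts per 1000, again with overlap (log2 difference 0.03, SE 0.09, adjusted p = 0.840). Because most of the interval was higher in MEFs, this block made up more of the interval in ES cells. It held 17.5%, 19.1%, 14.7% and 12.9% of the counts of the 8 blocks, and after scaling to the interval total it was called higher in ES cells (log2 difference 0.36, limma adjusted p = 0.0228), as were the loci of Gm34696 (0.35, adjusted p = 0.00541) and Gm40270 (0.40, adjusted p = 0.000361). With quantile normalization the block (-0.44, limma adjusted p = 1.08e-08) and the Gm40270 locus (-0.59, adjusted p = 3.51e-06) were called higher in MEFs instead.

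Contacts rose steeply over the last 50 kb, and here too MEFs had more. A region called higher in MEFs ran from 12743001 to 12798000, across the viewpoint window and just past it, with 28 of its 31 called windows inside the interval. Its window of smallest p, 12772001 to 12782000, had 25.6, 30.7, 45.0 and 45.8 counts per 1000, with both MEF libraries higher (1.61-fold, log2 difference -0.68, SE 0.11, limma adjusted p = 0.000146). Quantile normalization ended that call (-0.39, adjusted p = 0.107). The most contacted windows of the interval were the same in all 4 libraries, the last 2, starting at 12775001 and 12776001 and equal in every count, with 35.6, 43.5, 56.2 and 54.6 counts per 1000 (log2 difference -0.48, adjusted p = 0.00299). The largest rise from 1 window to the next was also at the same step in all 4, on moving to the window that starts at 12769001, where the values rose by 7.91, 8.28, 10.6 and 10.1 counts per 1000. Of the 9 windows that hold the whole Gm35104 promoter printed above, 7 were called higher in MEFs. The Gm35104 locus (12765994 to 12774296), whose windows reach the viewpoint window, had 26.3, 27.8, 31.4 and 35.0 counts per 1000 without overlap (log2 difference -0.28, limma adjusted p = 0.0161). The call ended on leaving out ES replicate 1 (log2 difference -0.24) or ES replicate 2 (-0.32). It also ended after centring (-0.03, limma adjusted p = 0.853), with edgeR (-0.27, adjusted p = 0.210) and with quantile normalization. Scaled to the interval total the locus was called higher in ES cells (0.12, limma adjusted p = 0.00130).

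One peak in this steep part did not differ. The window at 12736001 to 12746000 (position -50 kb), a local maximum in both cell types, had 16.1, 18.2, 14.8 and 18.5 counts per 1000. The libraries of the groups interleaved (log2 difference 0.04, limma adjusted p = 0.818).

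At the far end, next to Cyria, the difference was small. The block from 12381001 to 12431000 had 2.17, 2.57, 2.84 and 2.93 counts per 1000, and although the groups did not overlap it was not called (log2 difference -0.21, limma adjusted p = 0.183). The 4921511I17Rik locus (12351522 to 12392475), which begins outside the interval and ends inside it, had 1.30, 1.51, 2.40 and 1.89 counts per 1000 and was called higher in MEFs (log2 difference -0.38, adjusted p = 0.0218). That call was lost without ES replicate 1 (adjusted p = 0.205), ES replicate 2 (0.150) or MEF replicate 1 (0.149). Cyria itself, outside the interval, differed in the same direction (-0.28, adjusted p = 0.0246), and Mycn, on the other side, was higher in ES cells (1.37, adjusted p = 4.00e-05).

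Summarised in 8 blocks of 50 kb, 5 were called higher in MEFs and 0 higher in ES cells. Of the 21 such blocks tested on the chromosome, 66.7% were called in either direction and 38.1% were higher in MEFs. The block from 12431001 to 12481000, over the outer part of Gm34489, had 2.12, 1.38, 3.86 and 3.63 counts per 1000, with both MEF libraries higher (2.15-fold, log2 difference -0.80, SE 0.14, limma adjusted p = 5.57e-06). The next block inwards, to 12531000, had 1.48, 1.32, 2.80 and 2.67 (1.96-fold, -0.64, adjusted p = 3.16e-05). The remaining calls were the block from 12531001 given above, the block from 12631001 and the block from 12731001. The block from 12631001 to 12681000 had 4.70, 3.93, 5.63 and 6.55 counts per 1000 (1.41-fold, -0.42, limma adjusted p = 0.0112), and was no longer called on leaving out ES replicate 2 (adjusted p = 0.159), MEF replicate 1 (0.216) or MEF replicate 2 (0.458). The block nearest the viewpoint, from 12731001 to 12781000, had 14.7, 16.0, 19.5 and 22.6 (1.37-fold, -0.43, SE 0.06, adjusted p = 4.84e-08). With edgeR on the recovered counts neither of these last blocks was called (adjusted p = 0.315 and 0.273). The block from 12581001 to 12631000, which holds both the maximum shared by the cell types and the ES region, had 4.84, 5.25, 5.57 and 5.17 with overlap (-0.08, adjusted p = 0.668). Quantile normalization, over only 21 blocks, ended the calls of both Gm34489 blocks (adjusted p = 0.161 and 0.0508), of the block from 12531001 (0.0782) and of the block nearest the viewpoint (1.0).

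How the counts of the interval were split among the blocks also differed by position. The outer Gm34489 block held 5.46%, 3.41%, 7.52% and 6.71% of the counts of the 8 blocks, and the inner Gm34489 block 3.82%, 3.26%, 5.45% and 4.93%, with both MEF libraries above both ES libraries in each. Scaled to the interval total, these blocks were called higher in MEFs (log2 differences -0.51 and -0.36, limma adjusted p = 0.0228 and 0.0219). The block nearest the viewpoint, in contrast, held 38.0%, 39.7%, 38.0% and 41.6%, with overlap, and its difference shrank to -0.03 on that scale (adjusted p = 0.636). The gain of MEFs over these Gm34489 blocks was thus larger than the average gain over the interval, and the gain next to the viewpoint was close to that average. The whole Gm34489 locus, however, was not called on that scale (-0.32, limma adjusted p = 0.0543). After centring each library on its median block, which moved every difference up by about 0.37, the outer Gm34489 block was the 1 block called higher in MEFs (-0.44, adjusted p = 0.0242), while the blocks from 12581001 and from 12681001 were called higher in ES cells (0.29, adjusted p = 0.0418, and 0.36, adjusted p = 0.00600).

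**Figure D3:**
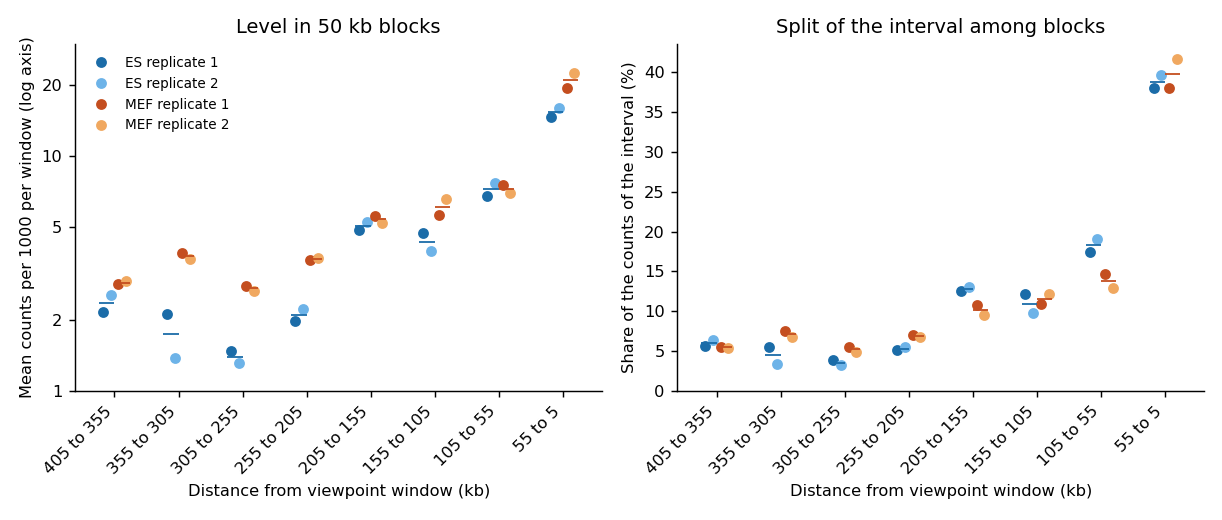
Left, mean counts per 1000 per window in 8 blocks of 50 kb (log axis), and right, the percentage of the counts of the 8 blocks in each block, against distance from the viewpoint window. Points are libraries and short lines are group means (n = 2 each). The MEF points lie above the ES points on both sides of the plot from 355 to 205 kb. On the right they lie below them from 405 to 355, 205 to 155 and 105 to 55 kb.

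Set against the windows at the same distances on the Mycn side, the balance differed most where that side holds Mycn. The log2 difference between ES cells and MEFs in the ratio of the sides was tested with limma over 484 pairs of windows at equal distance, a test chosen after the data had been seen. Over all pairs 29.3% were called, 27.1% with the balance lower on the Cyria side in ES cells and 2.27% with it higher. The interval had 393 tested pairs, most of those in the fit, with 125 and 10 called in those directions and a median difference of -0.62. In the block 155 to 105 kb from the viewpoint 46 of 50 pairs were called lower in ES cells. Over Gm34489 fewer were called lower than the 27.1% of all pairs, and 0 were called higher. From 355 to 305 kb it was 4 of 47 pairs (median difference -0.20), and from 305 to 255 kb 10 of 50 (-0.56). The pair with the smallest p set 12638001 to 12648000 against 12934001 to 12944000, which overlaps Mycn. The window in the interval had 5.82, 4.98, 5.72 and 5.59 counts per 1000 with overlap, and the one over Mycn had 31.2, 29.1, 6.32 and 6.70, so at this pair the values on the Mycn side alone separate the cell types (difference of log2 ratios -2.11, SE 0.26, limma adjusted p = 0.000415).

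The farthest block was the exception. From 405 to 355 kb all 10 pairs called had the balance higher on the Cyria side in ES cells, and 0 of 50 were called the other way. The mean log2 ratio of the sides there was 0.46 in ES cells and 0.02 in MEFs, against 0.06 and 0.39 in the next block inwards and -0.35 and 0.31 in the block after that.

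**Figure D4:**
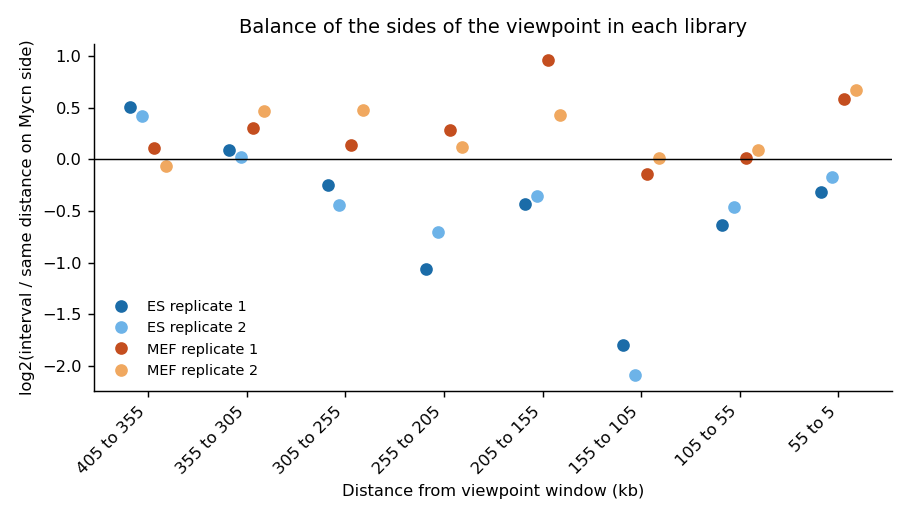
Log2 ratio of the mean value of each 50 kb block of the interval to that of the block at equal distance on the Mycn side, 1 point per library, against distance from the viewpoint window in kb. Both ES points lie below both MEF points in 7 of the 8 blocks, and above them from 405 to 355 kb.

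The cell types shared 4 local maxima of the profile, and 4 others met the rule in 1 cell type alone. A local maximum was a window of at least 1.5 times the median within 50 kb and the highest within 20 kb. Only windows of the interval were compared. The maximum at 12775001 lies within 20 kb of the viewpoint window, which has a higher mean, so it marks the edge of the interval rather than a separate peak. ES cells had maxima at 12421001, 12609001, 12682001, 12736001 and 12775001, and MEFs at 12422001, 12484001, 12585001, 12608001, 12645001, 12736001 and 12775001. The first, the one at 12608001 or 12609001, and the last pair thus lay within 1 kb of each other in both. The maxima of the MEF profile at 12484001, 12585001 and 12645001 had no ES counterpart, and all 3 windows were called higher in MEFs. Those windows were picked from the same values, which favours such calls, so the calls are no separate support for maxima particular to MEFs. The first of these, which covers 12484001 to 12494000, had 1.93, 1.76, 5.84 and 3.82 counts per 1000 (log2 difference -1.01, limma adjusted p = 0.00793). The maximum of the ES profile at 12682001 to 12692000 met the rule in ES cells alone, but its values of 9.90, 9.78, 8.64 and 9.09 did not differ by the test (0.14, limma adjusted p = 0.510).

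Over the 40 windows that do not overlap, Pearson's r of the log2 values was 0.93 between the ES libraries, 0.93 between the MEF libraries and 0.87 to 0.91 across cell types. Beyond 50 kb from the viewpoint, over 35 windows, it was 0.88, 0.86 and 0.77 to 0.84. These are descriptions, since all windows of a library share its depth and the fall of contact with distance. By overlap with annotated genes, 69 of 195 tested windows that touch a gene were called higher in MEFs and 0 higher in ES cells, with a median log2 difference of -0.55. Of 200 that touch none, 45 and 3 were called, with a median of -0.27. Over all 1107 tested windows of the chromosome, 14.2% were called higher in MEFs and 16.4% higher in ES cells. The 69 include the 9 windows that passed the filter through the MEF libraries alone. Gm34489 supplies most of the windows that touch a gene, so the split is largely that between its locus and the rest.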

How the data were processed

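Per the labels' protocols, cells were fixed with formaldehyde and their chromatin was digested with DpnII, ligated, digested with Csp6I and ligated again. Bowtie 1.0.0, edgeR and mm10 are named in the submitters' processing notes without their use. The counting of windows and any removal of duplicates are not given in the sources used here. A single table, deposited by the authors for this viewpoint, is named CPM and holds 10 kb windows stepping by 1 kb. All values (100% in each library, tolerance 0.01 count) were whole multiples of 1000 divided by a whole number, so they were read as counts per 1000 of that total. Counts in 1 kb steps could not be recovered.

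Groups came from the sample titles, and the window of highest mean was taken as the viewpoint. The members, gene and motif lists and tests were chosen with earlier results of these data known. Windows in which 2 or more of the 4 libraries reached 1 count per 1000 were tested with limma 3.58.1 in R 4.3.3 (lmFit, eBayes with trend) on log2(value + 1), two-sided, Benjamini-Hochberg adjusted at 0.05 over the chromosome; this scale understates changes of low values. The same test was run on 50 kb blocks (means of 5 windows that do not overlap) and on gene loci (windows overlapping the gene and 10 kb on each side), each adjusted over its own table. The spread is pooled over windows, on which the small p-values rest. As an alternative the recovered counts were tested with edgeR 4.0.16. The scripts were tested on simulated data. Named items were the window of smallest p of each merged region, the blocks, their highest windows, local maxima, the genes of the interval, Cyria and Mycn; other windows named were chosen after their values were seen. Replicate libraries differed by more than sampling noise (chi-square 291 for ES and 193 for MEF, each on 39 degrees of freedom). Figures were drawn with matplotlib 3.10.9. The tables of the other viewpoints were not used here.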

Additional observations from a re-analysis of the deposited data

How the results depend on the processing

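Depth limits single windows most in the troughs, where ES replicate 2 had as few as 6 counts, and how much each library total reflects contact elsewhere was not tested. The 3 ES-higher and 114 MEF-higher windows became 10 and 23 with centred values, 30 and 30 scaled to the interval total, 5 and 69 with edgeR on the recovered counts, 0 and 57 without the filter (more windows tested), and 0 and 13 in windows that do not overlap (fewer windows). MEF counts were 74 with quantile normalization and 73 without the trend, of which 53 and 64 were among the 114. Leaving out 1 library gave 0 to 2 and 61 to 77, the lowest MEF count without MEF replicate 2. Of the 114, 14 were called in each of 12 settings compared, which did not include scaling to the interval total. On that scale the window at 12645001, among these 14, was not called (-0.44, limma adjusted p = 0.0752). Blocks called higher in MEFs fell from 5 to 1 centred, 2 scaled to the interval total and 3 with edgeR. Quantile normalization also gave 3, but these were blocks 5, 6 and 7, of which only block 6 was among the 5; blocks 5 (-0.21) and 7 (-0.44) were newly called. The Gm34489 locus was not called scaled to the interval total (-0.32). The difference in interval share was -3.77 points without the interval's windows within 50 kb of the viewpoint, -9.27 over a total without windows within 50 kb, and -5.30 with both, the last chosen after seeing the data. The difference from the Mycn side was -0.62 as the median of window pairs, and that in mean distance -17.1 kb without the interval's windows within 50 kb. The cause of these moves, where none is named, was not tested.

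Directions turned as follows; the turned values were themselves called for blocks 5 and 7 centred, and scaled to the interval total for block 7, Gm34696 and Gm35104, and for Gm40270 with quantile normalization. With centred values block 1 (farthest) was 0.16, block 5 0.29, block 7 0.36 and the Gm34696 locus 0.24. Scaled to the interval total they were 0.094, 0.27, 0.36 and 0.35, and the Gm35104 locus 0.12. With quantile normalization, which over 21 blocks and 24 loci leaves few ranks, block 1 was 0.10, the 4921511I17Rik locus 0.035 and the Gm40270 locus -0.59. With edgeR block 5 was 0.17 and block 7 0.25. The Gm40270 locus was -0.027 scaled without windows within 50 kb and -0.031 with 5 kb flanks, which gave 0.0076 for Gm34696. Leaving out 1 library at a time gave -0.090 to 0.074 for block 7, -0.079 to 0.047 for Gm34696 and -0.078 to 0.13 for Gm40270. Same-numbered replicates did not deviate together (correlation 0.04 over 1107 windows), and the replicate block, which called 4 windows higher in ES cells and 135 in MEFs, left the interval share at -6.60 and ended the call of block 6 (adjusted p = 0.0781).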
